A study of Rattus norvegicus with 12 samples.

Results

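*Gapdh* and *Actb* are the 2 reference genes by which the quantitative PCR (qPCR) values of this study were divided, and their own levels were followed here in 12 RNA sequencing libraries of whole retina from Royal College of Surgeons (RCS) rats. Both genes were chosen because of that role and were found by their Ensembl identifiers, ENSRNOG00000018630 for *Gapdh* and ENSRNOG00000034254 for *Actb*, among the 32883 genes of the deposited counts. All rats carried the RCS-p+ genotype. At each age, postnatal day 21 (p21) and p60, 3 libraries were from rats labelled WT and male (RCS-p+, and called immunocompetent in the series' design text) and 3 from rats labelled athymic and female (RCS-p+/Foxn1mu). *Foxn1* is needed to form the thymus, so the athymic line lacks most T cells. The labels name no treatment other than age, and no group without retinal degeneration was included, so a change from p21 to p60 holds normal maturation and degeneration together. Line and labelled sex coincide.

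*Gapdh* encodes glyceraldehyde-3-phosphate dehydrogenase, the glycolytic enzyme that oxidises glyceraldehyde-3-phosphate. Photoreceptors rely heavily on glycolysis even when oxygen is plentiful. *Actb* encodes β-actin, a subunit of the actin filaments that shape cells, move them and carry phagocytosis, and it is abundant in glia, vessels and immune cells. RCS rats cannot clear shed photoreceptor outer segments because the *Mertk* phagocytosis receptor is defective, and the photoreceptors die over the weeks after eye opening. A reference gene in qPCR corrects for the amount of cDNA in a well, which works where the reference itself keeps a constant share of the RNA.

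On the Rnor_6.0 build named in the submitters' processing notes, *Gapdh* lies on chromosome 4 from 157676595 to 157679962 on the minus strand with 7 exon entries and 1002 exonic bases. *Actb* lies on chromosome 12 from 13715843 to 13718841 on the plus strand with 12 exon entries and 1395 exonic bases. Neither gene shares exonic positions with another annotated gene (0 genes for each). *Gapdh* has many near-identical copies. The RefSeq gene table of the GRCr8 build names 91 loci as *Gapdh* pseudogenes or *Gapdh*-like genes and 10 as *Actb* pseudogenes, so reads that fit several copies may have been lost or split in the counting, and levels across genes are less certain than changes within a gene.

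Total counts per library ranged from 13852516 to 16725355. Counts on the 48 Y-chromosome genes were 229.2 to 323 CPM (counts-per-million) in the libraries labelled male and 8.79 to 23.2 in libraries 6, 23 and 24, labelled female, whereas libraries 4, 5 and 22, also labelled female, had 269.2 to 328.3. Libraries 4, 19 and 24 had 34 to 52 genes at least 8-fold above the median of the other libraries of their age, against 0 to 10 such genes in the others. Results were therefore also computed without libraries 3, 4, 5 and 22 (library 3 had the lowest Y level of the libraries labelled male) and without libraries 4, 19 and 24. The series' design text counts 3 rats per line and age, so the libraries of a group were taken as separate animals. The labels give no batch or sequencing date.

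*Gapdh* was among the most abundant transcripts of the retina and became less abundant with age. Its raw counts at p21 were 34436, 33538 and 32282 in libraries 1, 2 and 3 of the immunocompetent line and 29484, 28912 and 34611 in libraries 4, 5 and 6 of the athymic line. At p60 they were 24364, 25376 and 25960 in libraries 19, 20 and 21 (immunocompetent) and 27174, 26587 and 25233 in libraries 22, 23 and 24 (athymic). The share of the library was 0.197% to 0.248% at p21 and 0.170% to 0.172% at p60. The 95% Wilson interval was 0.245% to 0.250% for the highest p21 share, in library 1, and 0.168% to 0.172% for the lowest p60 share, in library 24. These intervals cover counting error only, and every p21 library lay above every p60 library. By share of the library, 43.4% of the 16069 genes tested had no overlap between the ages, 12% lower and 31.4% higher at p60.

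Libraries were then scaled by the trimmed mean of M-values (TMM), which leaves out the largest changes and sets libraries equal over the remaining genes. It takes rises and falls among those genes to balance, which was not tested. On this scale, *Gapdh* was at 2730.1, 2271 and 2439 CPM in the immunocompetent line at p21. At p60 it was at 1606, 1609 and 1614 CPM in that line. In the athymic line it was at 2105, 2159 and 2209 CPM at p21 and at 1605, 1615 and 1589 at p60. The mean fell from 2319 ± 232.1 to 1607 ± 9.34 CPM (SD, n = 6 per age). *Gapdh* fell, with a log2 fold change of -0.53 (SE 0.0492, adjusted p = 5.03e-07, edgeR's quasi-likelihood test over all 12 libraries with line as a covariate), a level 1.44-fold lower at p60. In that comparison 62% of the 16069 genes tested were called at an adjusted p under 0.05 and 30.3% were called lower, so a call alone does not set *Gapdh* apart. A larger absolute change was found for 33.3% of the genes tested. The p21 and p60 libraries of *Gapdh* did not overlap, as was the case for 40.4% of all genes tested (20.5% lower and 19.8% higher at p60). In bulk tissue, fewer cells that express a gene and less RNA of it per cell cannot be told apart.

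*Actb* moved in the opposite direction. Its raw counts at p21 were 8162, 10864 and 10431 in libraries 1, 2 and 3 and 10362, 8074 and 8724 in libraries 4, 5 and 6. At p60 they were 14248, 12063 and 15541 in libraries 19, 20 and 21 and 16506, 15509 and 14520 in libraries 22, 23 and 24. As a share of the library, *Actb* took 0.0522% to 0.0753% at p21 and 0.0819% to 0.104% at p60, without overlap. On this scale the ages did not overlap for 43.4% of the 16069 genes tested, 31.4% higher and 12% lower at p60.

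On the TMM scale, *Actb* was at 647.1, 735.7 and 788.1 CPM in the immunocompetent line at p21 and at 939.2, 765 and 966.2 at p60. In the athymic line it was at 739.6, 602.9 and 556.7 CPM at p21 and at 975.1, 942.4 and 914.6 at p60. On this scale the ages overlapped in the immunocompetent line, since library 20 at p60 lay below library 3 at p21. The athymic libraries did not overlap, and the share of all genes without overlap within that line was not computed. The mean rose from 678.3 ± 90.1 to 917.1 ± 77.5 CPM (SD, n = 6). The log2 fold change was 0.44 (SE 0.0849, adjusted p = 4.69e-04, edgeR's quasi-likelihood test), a level 1.35-fold higher at p60. Of all genes tested, 31.7% were called higher, and 40.8% had a larger absolute change than *Actb*.

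**Figure D1:**
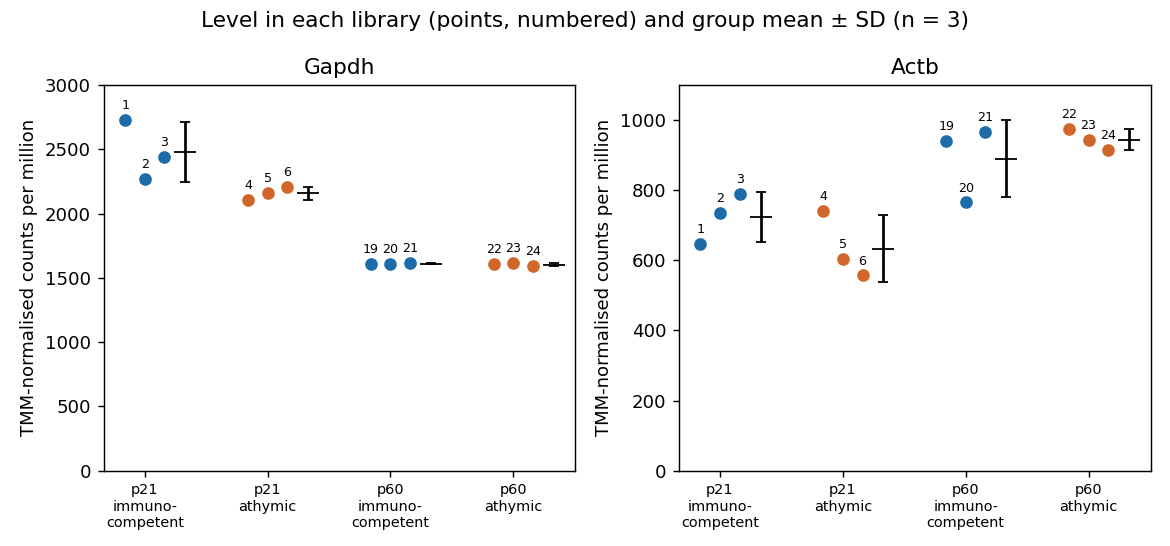
*Gapdh* (left) and *Actb* (right) in each of the 12 libraries as TMM-normalised CPM, with the library number beside each point and the group mean ± SD in black (blue, immunocompetent line; orange, athymic line). All 6 p60 libraries of *Gapdh* sit near 1607, below all p21 libraries, whereas the *Actb* libraries at p60 lie above all p21 libraries apart from library 20, which is below library 3.

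Both genes changed in the same direction in each line alone, in fits that share no libraries. *Gapdh* had a log2 fold change of -0.63 (SE 0.0764, adjusted p = 1.38e-04, edgeR) in the immunocompetent line, where 51.4% of the genes tested were called and 25.8% were called lower. In the athymic line it was -0.43 (SE 0.0458, adjusted p = 1.00e-04, edgeR), where 49.9% were called and 24.6% were called lower. *Actb* had a log2 fold change of 0.57 (SE 0.0930, adjusted p = 0.00111) in the athymic line, where 25.3% of genes were called higher. In the immunocompetent line the rise of *Actb* was 0.30 (SE 0.104, adjusted p = 0.0377), where 25.6% of genes were called higher. That call was lost when library 1, 2, 19 or 21 was left out, with log2 fold changes of 0.23, 0.31, 0.26 and 0.24 and adjusted p-values of 0.114, 0.0858, 0.0714 and 0.124 (edgeR). The change did not pass the test for a difference between the lines for either gene after adjustment over all genes. The interaction was 0.20 on the log2 scale for *Gapdh* (SE 0.0856, unadjusted p = 0.0400, adjusted p = 0.511, edgeR). For *Actb* it was 0.28 (SE 0.156, unadjusted p = 0.0977, adjusted p = 0.634, edgeR). Of the 16069 genes tested, 1 gene (0.00622%) passed this test, and 1494 had an unadjusted p under 0.05.

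The lines were also compared at each age. At p21, *Gapdh* in the athymic libraries had a log2 difference of -0.20 from the immunocompetent libraries (SE 0.0605, unadjusted p = 0.00555, adjusted p = 0.208, edgeR), and *Actb* had -0.19 (SE 0.110, adjusted p = 0.452). At p60 the differences were -0.0057 for *Gapdh* (SE 0.0605, adjusted p = 0.994) and 0.085 for *Actb* (SE 0.110, adjusted p = 0.903). No gene of the 16069 tested passed the threshold at p21 (0 by edgeR, with 2243 at an unadjusted p under 0.05) and 2 passed at p60 (0.0124%).

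Without libraries 3, 4, 5 and 22, *Gapdh* had a log2 fold change of -0.57 (SE 0.0687) and *Actb* of 0.50 (SE 0.0993) over both lines. Without libraries 4, 19 and 24 these values were -0.54 (SE 0.0614) and 0.47 (SE 0.0998). All 4 values passed the test (adjusted p at most 0.00228, edgeR), as did 49.8% and 56.4% of all genes tested in these fits.

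Per kilobase of exon, *Gapdh* was the more abundant gene in every library. Its RPKM, the CPM on total counts divided by exonic length in kilobases, were 1970 to 2473 at p21 and 1694 to 1719 at p60, which placed it at ranks 13 to 18 of all genes at p21 and at ranks 10 to 12 at p60. *Gapdh* thus stood higher in rank at p60 although its level was lower. The RPKM of *Actb* were 373.9 to 539.8 at p21 and 586.8 to 747.7 at p60, at ranks 65 to 104 and 37 to 49. The exonic lengths of *Gapdh* (1002 bases) and *Actb* (1395 bases) in this annotation are both multiples of 3. Whether the untranslated ends of either gene are counted was not tested. Their absence would lower counts and length together, and its effect on the level per kilobase was not tested.

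The ratio of the genes within a library needs no scaling between libraries. *Gapdh* counts were 4.22, 3.09 and 3.09 times those of *Actb* in libraries 1, 2 and 3 and 2.85, 3.58 and 3.97 times in libraries 4, 5 and 6. At p60 the ratio was 1.71, 2.10 and 1.67 in libraries 19, 20 and 21 and 1.65, 1.71 and 1.74 in libraries 22, 23 and 24. The lowest p21 ratio was above the highest p60 ratio. The mean ratio went from 3.47 ± 0.547 to 1.76 ± 0.170 (SD, n = 6 per age), and the log2 ratio fell by 0.96 (SE 0.106, p = 0.00216 in a two-sided exact permutation of the ages, which for 6 libraries per age can give no smaller value). This is a 1.95-fold change of the references against each other. In the lines alone, the log2 ratio fell by 0.92 (SE 0.183) in the immunocompetent and by 1.01 (SE 0.144) in the athymic line, each at an exact permutation p of 0.1, below which 3 libraries per age cannot go. Without libraries 3, 4, 5 and 22 it fell by 1.06 (exact permutation p = 0.0179), and without libraries 4, 19 and 24 it fell by 1.005 (exact permutation p = 0.00794). Each is the smallest p that the libraries left can give.

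**Figure D2:**
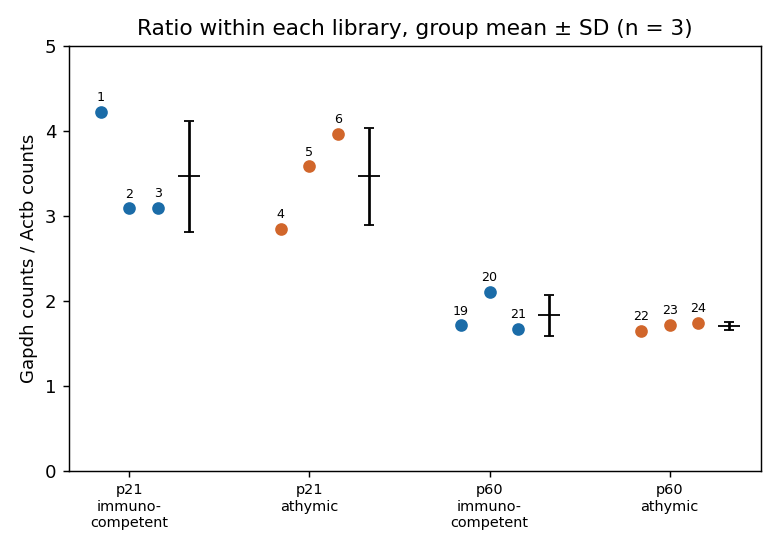
Counts of *Gapdh* divided by counts of *Actb* in each of the 12 libraries, with library numbers, and group mean ± SD in black (blue, immunocompetent line; orange, athymic line). The 6 p21 libraries lie between 2.85 and 4.22 and the 6 p60 libraries between 1.65 and 2.10.

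The size of each change depended on the scaling, and its direction did not. With total counts alone, which treats every library as the same amount of messenger RNA, the log2 fold change was -0.34 (SE 0.0451) for *Gapdh* and 0.63 (SE 0.0877) for *Actb*. Leaving out the genes of the mitochondrial genome from the total gave -0.32 and 0.64, and leaving out the 100 nuclear genes with the highest mean share gave -0.43 and 0.53. Upper-quartile factors gave -0.47 and 0.50, and relative log expression factors gave -0.53 and 0.43. All of these passed the test for both genes (adjusted p at most 4.21e-04, edgeR), where 63.9%, 64.3%, 61.8%, 61.6% and 62.1% of all genes were called, in the same order. With total counts, 45.8% of genes were called higher and 18.1% lower. Over the 16069 genes, the median log2 fold change was 0.015 with TMM factors and 0.20 with total counts, so the change of *Gapdh* lay below that of the median gene and the change of *Actb* above it under both.

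Over both lines together, the combined level of both references changed less than either. The mean of log2 *Gapdh* and log2 *Actb*, which is what division by both genes uses when their PCR cycle values are averaged, differed by -0.041 between p60 and p21 on the TMM scale (SE 0.0580, n = 6 per age, two-sided exact permutation test, p = 0.5). The difference was 0.15 with total counts (SE 0.0577, exact permutation p = 0.0390) and 0.16 without the mitochondrial genes (SE 0.0577, exact permutation p = 0.0238). It was 0.052 without the 100 highest nuclear genes, 0.018 with upper-quartile factors and -0.045 with relative log expression factors, with exact permutation p-values of 0.390, 0.751 and 0.429. The sign of the combined shift thus depended on the scaling. The geometric mean of both genes was 1251 ± 108.2 CPM at p21 and 1213 ± 53.2 CPM at p60 on the TMM scale (SD, n = 6). Without libraries 3, 4, 5 and 22 the TMM shift was -0.038 (exact permutation p = 0.607), and without libraries 4, 19 and 24 it was -0.044 (exact permutation p = 0.611).

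**Figure D3:**
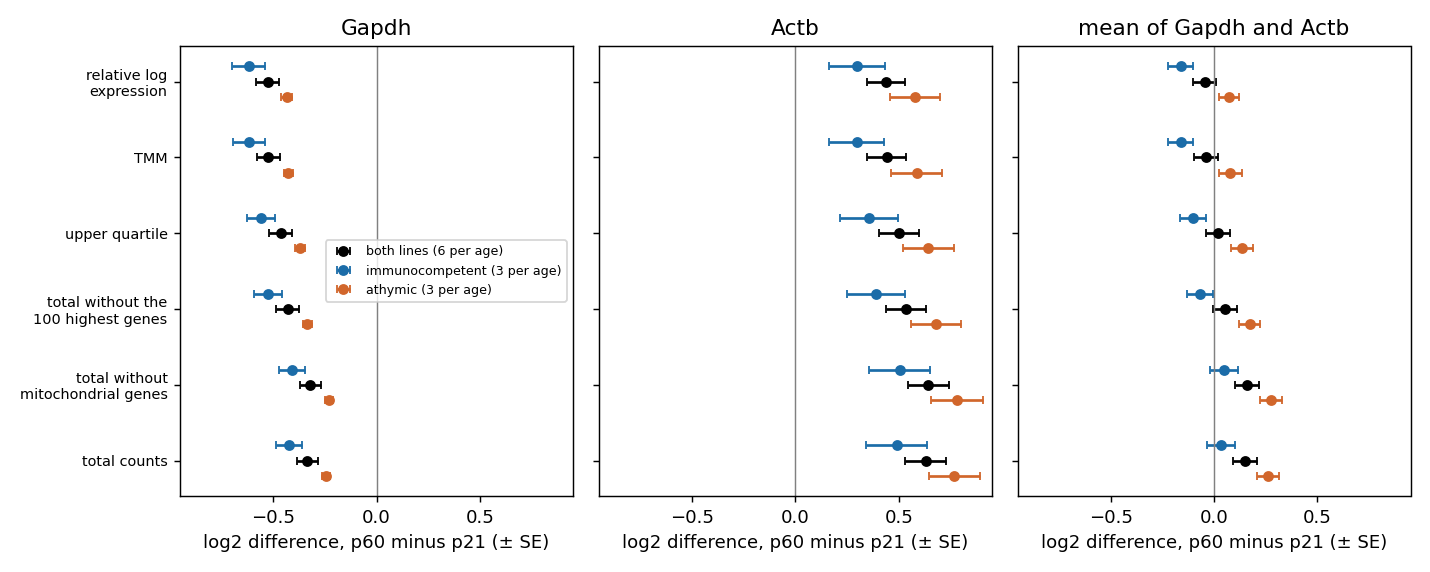
Difference in mean log2 level between p60 and p21 (± SE) of *Gapdh*, of *Actb* and of the mean of both, under 6 scalings on the vertical axis, for both lines together (black), the immunocompetent line (blue) and the athymic line (orange). *Gapdh* lies left of 0 and *Actb* right of 0 in every row, whereas the mean of both lies on either side of 0, from -0.16 in the immunocompetent line with TMM factors to 0.28 in the athymic line without mitochondrial genes.

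The combined shift was lower in the immunocompetent than in the athymic line, a difference whose call depended on single libraries. On the TMM scale the shift was -0.16 in the immunocompetent line (SE 0.0609, n = 3 per age) and 0.079 in the athymic line (SE 0.0536, n = 3 per age). With total counts it was above 0 in both lines, at 0.033 (SE 0.0679) and 0.26 (SE 0.0532), and likewise without the mitochondrial genes, at 0.047 (SE 0.0666) and 0.28 (SE 0.0553). On the TMM scale the difference between the lines was 0.24 on the log2 scale (two-sided exact permutation of line within each age, 400 assignments, p = 0.03, where the smallest possible p is 0.005). Over the 6 scalings the difference was 0.23 to 0.24 with p-values of 0.03 to 0.055 by the same exact permutation. It did not hold under every choice of libraries. The p was at or above 0.05 in 7 of 12 fits that left out a single library (1, 2, 3, 6, 20, 22 or 23), where the difference was 0.19 to 0.26. It was 0.27 without libraries 3, 4, 5 and 22 (exact permutation p = 0.167) and 0.33 without libraries 4, 19 and 24 (exact permutation p = 0.0333). This comparison was added after the values were seen. At p21 the geometric mean of both genes was 1329, 1293 and 1386 CPM in libraries 1, 2 and 3. It was 1248, 1141 and 1109 in libraries 4, 5 and 6, without overlap between the lines. How often such a separation of 3 libraries from 3 occurs over all genes was not computed. At p60 it was 1228, 1110 and 1249 CPM in libraries 19, 20 and 21 and 1251, 1234 and 1206 in libraries 22, 23 and 24, where the lines overlapped.

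The study divided qPCR targets, which were lipoxygenases and inflammatory cytokines, by both reference genes after loading an equal mass of cDNA per well. Of these, the paper shows *ALOX5* and *ALOX15* over age, including ages between p21 and p60. The libraries here cover only p21 and p60, so the shift of the references at the ages between was not measured. The paper shows *ALOX12* and the cytokines only between dose groups of the same age, and *ALOX5* and *ALOX15* between these groups too. The shift computed here is between ages and does not carry over to dose groups. Whether either reference differs between dose groups was not tested, since no library is from a dosed rat. The arithmetic consequence of the shifts was computed for a target that itself keeps a constant TMM-scaled level. Divided by *Gapdh* alone, such a target appears at 1.44-fold of its p21 value at p60. Divided by *Actb* alone, it appears at 0.737-fold. Divided by both, it appears at 1.03-fold over both lines, at 1.12-fold in the immunocompetent line and at 0.947-fold in the athymic line. A target with a constant share of all counts appears at 1.26-fold with *Gapdh*, 0.646-fold with *Actb* and 0.903-fold with both. Divided by both, it appears at 0.977-fold in the immunocompetent line, below 1 where the TMM scale gives a value above 1, and at 0.834-fold in the athymic line. Which scaling, if any, stands close to an equal mass of cDNA was not tested. The paper made its cDNA from a fixed mass of extracted RNA. Every scaling used here is set within the sequenced messenger RNA, so none can show a change of messenger RNA per total RNA. The qPCR values themselves and the RNA sequencing levels of the targets were not analysed here, and PCR efficiency and primer position can add differences that counts over whole genes do not hold.

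The spread between single libraries was also considered. Among the 18 pairs of a p21 and a p60 library of the same line, the apparent fold of a target constant on the TMM scale was 1.30 to 1.70 with *Gapdh* as reference (above 1 in 18 of 18 pairs). With *Actb* it was 0.571 to 1.03 (above 1 in 1 of 18 pairs). With both genes it was 0.886 to 1.25 (above 1 in 11 of 18 pairs). The pairs share libraries and are given as a range only.

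The direction called for many genes depended on the reference. When all 12 libraries were scaled to *Gapdh* alone and the same test was run, 11292 of 16069 genes (70.3%) were called higher at p60 and 1230 (7.65%) lower, 77.9% in all. When they were scaled to *Actb* alone, 1208 genes (7.52%) were called higher and 8570 (53.3%) lower, 60.9% in all. Of all genes tested, 4915 (30.6%) were called higher with *Gapdh* and lower with *Actb* (edgeR's quasi-likelihood test, adjusted p under 0.05 in both). This count was 4127 of 16753 genes without libraries 3, 4, 5 and 22, 4234 of 16137 without libraries 4, 19 and 24, and 5368 of 16342 without library 20. Of the genes tested, 1208 were called higher and 1230 lower with each single reference. The error of the reference itself is not part of these fits. Scaling to a single reference moves the log2 fold changes of all genes by nearly the same amount. The calls in opposite directions therefore follow from the opposite changes of the references and are no further evidence on them.

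With libraries scaled to both genes together, 4997 genes (31.1%) were called higher and 3789 (23.6%) lower, 54.7% in all, against 5096 and 4873 with TMM factors. Of the genes called with TMM factors, 4912 were called higher and 3788 lower with both references, and 0 were called in the opposite direction. The calls lost were 1085 genes lower and 184 genes higher with TMM factors, whereas 85 genes called higher and 1 called lower with both references were not called with TMM factors. Over all genes tested, the median log2 fold change was 0.057 with both references, 0.54 with *Gapdh* alone and -0.43 with *Actb* alone. With *Gapdh* alone, 1803 genes called lower with TMM factors were called higher, and with *Actb* alone, 236 genes called higher with TMM factors were called lower.

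**Figure D4:**
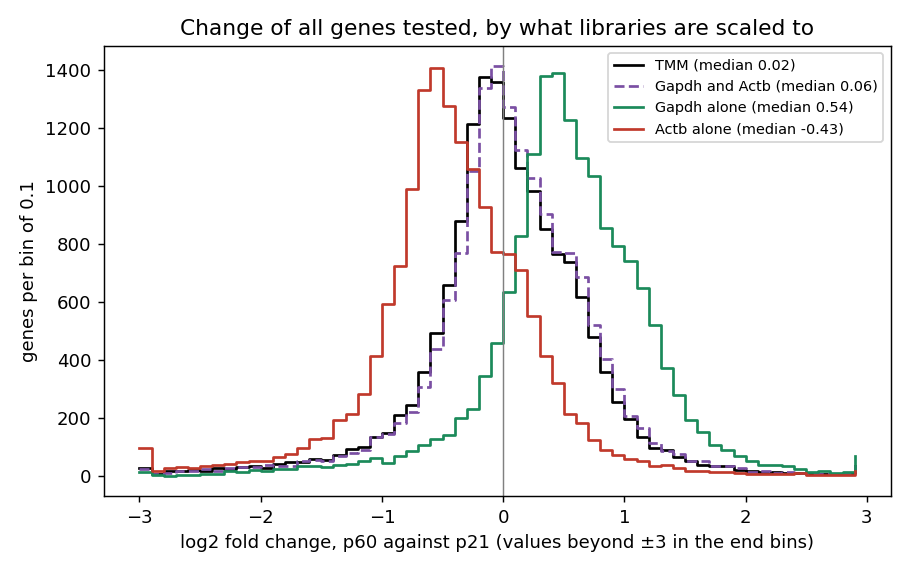
Number of genes in bins of 0.1 of log2 fold change between p60 and p21 for the 16069 genes tested, with libraries scaled by TMM, by *Gapdh* and *Actb* together, by *Gapdh* alone and by *Actb* alone. The curves for TMM and for both references nearly coincide, with medians of 0.015 and 0.057, and those for the single references are moved to 0.54 and -0.43.

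Among 1714 abundant genes (mean log2 CPM of at least 7), neither reference was among the steadier ones over all 12 libraries. The SD of log2 CPM was 0.289 for *Gapdh* and 0.279 for *Actb*, against a median of 0.190, and 68.7% and 67.0% of these genes had a smaller SD. An absolute change between the ages smaller than that of *Gapdh* was found for 69.8% of these genes, and smaller than that of *Actb* for 62.4%.

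Within an age the genes differed. The coefficient of variation of *Gapdh* was 10.01% at p21 and 0.582% at p60 on the TMM scale (n = 6 libraries each), where counting error alone gives 0.558% and 0.623%. At p60 none of the 1714 abundant genes had a smaller coefficient of variation than *Gapdh* (0 genes), whereas at p21 85.5% did. Counting error is larger for genes with fewer counts, so the rank at p60 also reflects the high counts of *Gapdh*. Its p60 value was 0.408% with relative log expression factors and 0.886% with upper-quartile factors. The coefficient of variation of *Actb* was 13.3% at p21, where 95.7% of abundant genes were below it, and 8.45% at p60, where 81.6% were below it. The medians over the 1714 genes were 6.41% at p21 and 5.20% at p60. The small spread of *Gapdh* among p60 libraries thus stood beside a large difference between the ages.

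**Figure D5:**
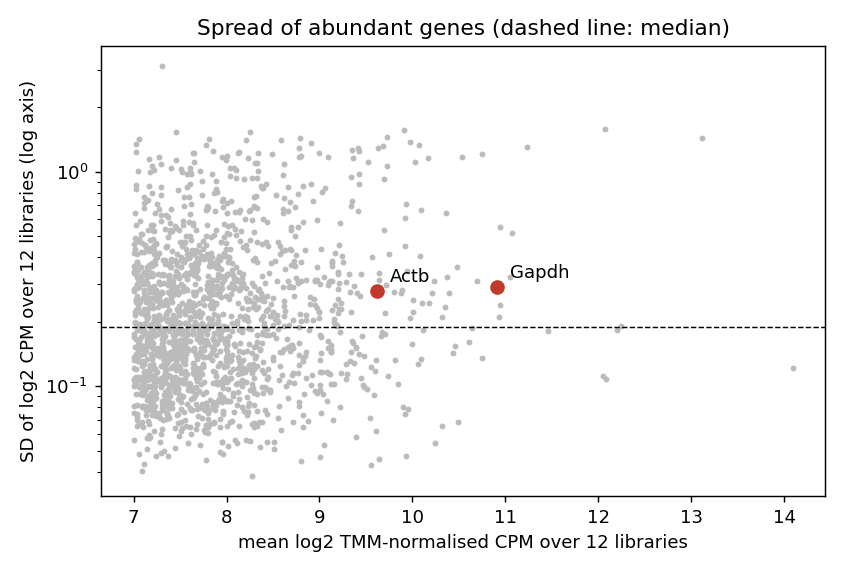
SD of log2 CPM over the 12 libraries (log axis) against mean log2 CPM for the 1714 abundant genes (grey), with *Gapdh* and *Actb* in red. Both lie above the dashed line, which is the median SD of 0.190.

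The genes whose pattern over the 12 libraries was most like each reference were found among 6717 genes whose mean log2 CPM reached 5. They are given by identifier, because the gene table at hand matches 0 of the identifiers. ENSRNOG00000014520, on chromosome 16 from 83276273 to 83278119, had a Pearson's r of 0.991 with *Gapdh* and a log2 fold change of -0.48 (SE 0.0497). ENSRNOG00000014573, on chromosome 3 from 113318563 to 113324461, had an r of 0.987 and a log2 fold change of -0.77 (SE 0.0539). For *Actb*, ENSRNOG00000030118, on chromosome X from 65226748 to 65295810, had an r of 0.940 with a log2 fold change of 0.91 (SE 0.151). ENSRNOG00000001733, on chromosome 11 from 73022063 to 73034682, had an r of 0.940 with 0.37 (SE 0.0465). The age difference is part of each r, so these values are a description.

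The steadiest abundant genes over all 12 libraries were ENSRNOG00000006247, on chromosome 13 from 90467265 to 90508932, with an SD of log2 CPM of 0.0383 and a log2 fold change of -0.041 (adjusted p = 0.250, edgeR), and ENSRNOG00000017201, on chromosome 1 from 198635447 to 198638944, with an SD of 0.0403 and a log2 fold change of -0.0033 (adjusted p = 0.938). They were chosen for their small spread on the TMM scale, so it is a description, and it is below that of both references on that scale. Markers of photoreceptors, glia, microglia and lens, the other glycolytic and actin genes and other common reference genes were not analysed here, because their symbols could not be paired with identifiers. The part of photoreceptor loss in the fall of *Gapdh*, and of glia or immune cells in the rise of *Actb*, was not tested.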

How the data were processed

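Poly(A) RNA of 12 whole retinas was sequenced as paired-end reads. Per the submitters' processing notes, reads were mapped with STAR 2.5.2b to Rnor_6.0 and counted with featureCounts of Subread 1.5.2, and the authors deposited raw counts per gene for each library. The strand setting and the treatment of reads with several positions are not given in the sources used here.

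From these counts, genes were kept with edgeR's filterByExpr (minimum count 10, minimum total 15), scaled with TMM factors and tested with edgeR 4.0.16 in R 4.3.3 (quasi-likelihood test, Benjamini-Hochberg adjustment over all genes, threshold 0.05). Single values per library were tested by exact permutation. For scaling to a reference, the effective library size was set proportional to the counts of *Gapdh*, of *Actb* or to their geometric mean. Shares have 95% Wilson intervals. The fits were tested on simulated data. Library totals were 13852516 to 16725355. On the TMM scale, counting error was below the spread between libraries for both genes at both ages, apart from *Gapdh* at p60. There the spread was no larger than counting error.

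The members, lists and alternatives were chosen with earlier results of these data known. Genes other than the references were named by likeness to a reference or by steadiness, as identifiers only. The planned lists by symbol could not be used, since 0 identifiers matched the gene table. Alternatives were 5 other scalings, other filters, DESeq2 1.42.0, other models and leaving out libraries. Plots were drawn with matplotlib 3.10.9.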

Additional observations from a re-analysis of the deposited data

Results flagged for a closer look

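Dixon's ratio was computed for 4 measures at each age, in 8 groups of 6 libraries, and was above the critical value of 0.625 in 3 groups, where chance flags about 1 in 20 groups. All 3 were library 20, an immunocompetent retina at p60, and they share the same *Actb* value. *Actb* was at 765 CPM (TMM scale) in library 20, against 914.6 to 975.1 in the other p60 libraries (Dixon's ratio 0.712). The *Gapdh* to *Actb* count ratio was 2.10 there, against 1.65 to 1.74 (Dixon's ratio 0.7999), and the geometric mean of both genes was 1110 CPM, against 1206 to 1251 (Dixon's ratio 0.679). *Gapdh* itself was at 1609 CPM in library 20, within the other p60 libraries. Without library 20, *Actb* had a log2 fold change of 0.50 (SE 0.0748, adjusted p = 8.20e-05, edgeR) over both lines and of 0.40 (SE 0.0912, adjusted p = 0.00849) in the immunocompetent line.

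The combined shift of both references from p21 to p60 was 0.24 higher on the log2 scale in the athymic than in the immunocompetent line (exact permutation of line within each age, p = 0.03), a test added after the values were seen and not corrected for other tests. Without library 20 the difference was 0.19 (exact permutation p = 0.075), and without libraries 3, 4, 5 and 22 it was 0.27 (exact permutation p = 0.167). Neither gene alone passed the interaction test after adjustment over all genes, where the unadjusted p was 0.0400 for *Gapdh* and 0.0977 for *Actb* (edgeR). Line and labelled sex cannot be told apart. The Y-chromosome counts of libraries 4, 5 and 22 go against their female label. Whether their sex label or their line is misassigned was not tested.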

How the results depend on the processing

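No paired analysis was possible because no library number occurs in more than 1 group of the labels. Of 254 recomputed values, 233 kept their direction and their side of the threshold (for counts of genes, within 1.5 times). The combined shift of both references, -0.041 with TMM factors, reversed to 0.15 with total counts, 0.16 without mitochondrial genes, 0.052 without the 100 highest nuclear genes, 0.018 with upper-quartile factors and 0.079 in the athymic line alone. The log2 *Gapdh* to *Actb* ratio was -0.92 in the immunocompetent and -1.01 in the athymic line alone, where no p under 0.1 is possible. The rise of *Actb* in the immunocompetent line lost its call without libraries 4, 19 and 24 (0.26), of which only library 19 is in that line. Leaving out each library in turn gave 0.23 to 0.40 for this rise, with an adjusted p above 0.05 in 4 of 6 fits (edgeR). The difference between the lines in the combined shift lost its call without mitochondrial genes in the total (0.23, exact permutation p = 0.055) and without libraries 3, 4, 5 and 22 (0.27). Leaving out each library gave 0.19 to 0.29, with an exact permutation p at or above 0.05 in 7 of 12 cases. With each library left out over both lines, *Gapdh* was -0.55 to -0.48 and *Actb* 0.39 to 0.50, all called. The scaling to total counts moved the split of genes called from 5096 higher and 4873 lower to 7357 and 2906. Single-reference scaling moved it to 11292 and 1230 (*Gapdh*) or 1208 and 8570 (*Actb*). Scaling without the photoreceptor list was not run, since no identifier could be paired. With at least 8074 counts of *Actb* in every library, counting error was far below the spread between libraries, apart from *Gapdh* at p60.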
